A study of Mus musculus with 16 samples.

Results

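Chemokines and their receptors were taken as every gene of the count tables whose symbol begins with Ccl, Cxcl, Ccr, Cxcr or Ackr followed by a digit, together with Cx3cl1, Cx3cr1, Xcl1 and Xcr1. The rule uses gene names and no measured value. It gave 70 of 47729 Ensembl identifiers, of which 47 were ligands and 23 were receptors, and these carried 64 distinct symbols. RNA sequencing had been done on 4 cell types sorted from livers of adult mice: endothelial cells (ECs), hepatic stellate cells (HSCs), Kupffer cells (KCs, the resident macrophages of the liver) and hepatocytes. For each cell type there were 2 libraries labelled wild type (WT) and 2 labelled as an endothelial knock-out (KO) of Zeb2, a zinc-finger repressor, which makes 16 libraries in 8 groups. By the methods of the study, KO mice carried a floxed Zeb2 exon, the tamoxifen-inducible Cdh5-CreERT2 driver, active in endothelium, and an eGFP reporter. WT mice were littermates without Cre that also received tamoxifen, at 2 mg per day for 5 days. Mice were male and 8 weeks old unless stated otherwise, and were sampled 2 weeks after tamoxifen. Sorting was on vitamin A autofluorescence for HSCs, F4/80 for KCs and Meca32 for ECs, while hepatocytes were collected by centrifugation. Replicate numbers, given here after the label (EC WT 34), differ between all groups. Nothing in the labels says which libraries came from the same mouse, so p-values measure the spread between these libraries.

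Chemokines are small secreted proteins that guide leukocytes along gradients. They bind G-protein-coupled receptors of the CCR, CXCR, CX3CR and XCR families, and CXCL16 and CX3CL1 are made as transmembrane proteins that also act as adhesion molecules. Atypical receptors, named ACKR, bind chemokines without G-protein signalling and serve to scavenge, transport or present them. Inflammatory chemokines such as CCL2 and CXCL1 are induced within hours by cytokines, microbial products and tissue handling, whereas homeostatic ones such as CXCL12 are made constantly. In the liver, sinusoidal endothelium, macrophages and stellate cells are all known sources, and the chemokines they release draw in monocytes, lymphocytes and neutrophils.

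Promoter stretches of Cxcl1, Cxcl2, Cxcl3 and Cxcl10 are shown as examples of inducible ligands whose levels in single libraries are given further on. Cxcl1, Cxcl2 and Cxcl3 lie near each other on the plus strand of chromosome 5, and Cxcl10 lies on the minus strand of the same chromosome. The sequences are from RefSeq (build GRCm38.p6), run 5′ to 3′ in the direction of the gene, and end at the base before the transcription start. Capitals mark matches to the NF-kB consensus in all 4 stretches and, in the first capital run of Cxcl10, a match to TTTCNNTTTC, the core of the element bound by interferon-activated factors, read on the other strand. Their positions are chr5:90891135-90891244 for Cxcl1, chr5:90903789-90903898 for Cxcl2, chr5:90785991-90786100 for Cxcl3 and chr5:92348890-92349109 for Cxcl10.
Cxcl1: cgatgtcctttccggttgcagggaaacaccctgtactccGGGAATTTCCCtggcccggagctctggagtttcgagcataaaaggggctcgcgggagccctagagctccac
Cxcl2: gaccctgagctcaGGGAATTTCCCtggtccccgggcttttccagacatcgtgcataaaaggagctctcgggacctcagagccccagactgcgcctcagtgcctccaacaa
Cxcl3: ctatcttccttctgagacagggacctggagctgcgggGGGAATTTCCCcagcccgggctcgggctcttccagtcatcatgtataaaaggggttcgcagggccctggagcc
Cxcl10: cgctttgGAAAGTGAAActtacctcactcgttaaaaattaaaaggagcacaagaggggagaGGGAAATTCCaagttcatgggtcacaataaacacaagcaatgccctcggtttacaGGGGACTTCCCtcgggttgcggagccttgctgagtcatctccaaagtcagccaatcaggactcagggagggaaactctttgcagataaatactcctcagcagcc
The same 11 letters, in capitals, stand in the promoters of Cxcl1, Cxcl2 and Cxcl3, where matches on both strands overlap. Over the 250 bases before the start, searched on both strands, the NF-kB consensus was found in 11 of 53 member windows (20.8%) and in 7.25% of all 32851 RefSeq promoter windows. TTTCNNTTTC was found in 3 member windows (5.66%) against 2.98% of all windows. CACCTG, the E-box that Zeb proteins are known to bind, was found in 9 member windows (17%) against 17.2% of all windows. These matches describe letters in a window and no binding was measured. RefSeq windows were at hand for 46 of the 64 symbols, and Ccl2, Ccl4, Ccl5, Ccl7, Ccl24, Ccr7 and Cxcl16 were among those without one.

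Of the 70 identifiers, 13 had no count in any library, 2 (Ccl1 and Ccl20) never had more than 3 counts, and 55 exceeded 3 counts in at least 1 library. The identifiers at 0 included all of Ccl21a, Ccl21b and Ccl21c, which exist as near-identical copies. Reads that fit several copies equally well are dropped when reads are counted per gene, so their 0 counts carry no information on these homing chemokines. The same limit touches Ccl19 and Ccl27a. Library totals ran from 12872706 to 15690506 counts, so that 3 counts, the lowest level read here as detection, corresponded to about 0.2 CPM (counts per 1000000 counts of the library). Intervals and floors of this kind cover counting error only. In every library but EC WT 38, the markers of its own label summed highest among the cell types. In EC WT 38, hepatocyte markers summed to 24523 CPM and endothelial markers to 19496 CPM. Lists of 10 markers each summed to at least 19496 CPM for ECs, 45474 for KCs, 47621 for HSCs and 98064 for hepatocytes in their own cell type, and to at most 1525, 2548, 972 and 24523 CPM elsewhere. Zeb2, the targeted gene, was at 106 CPM in both EC WT libraries and at 199 and 130 CPM in the EC libraries labelled KO. Counts over the whole gene do not show loss of 1 exon, but the values were not lower, and groups are therefore called by their labels. With cells pooled into a library, fewer cells of a type and less RNA per cell cannot be told apart.

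Members were spread unevenly over the cell types. A gene was called highest in 1 cell type when it was higher there than in each of the other 3 at an adjusted p under 0.05 (edgeR's quasi-likelihood test, all 16 libraries in one fit, Benjamini-Hochberg adjustment over all 17214 genes tested). Of the 47 members that passed the filter on low counts, 26 were so called, and 36.6% of all genes tested were. KCs led with 16 (10 ligands and 6 receptors), against 7.23% of all genes tested. ECs led with 5 (2 ligands and 3 receptors) against 4.81%, HSCs with 3 ligands against 6.66%, and hepatocytes with 2 ligands against 17.9%. 11 of the 26 calls held under every one of 21 alternatives, among them Cxcl12 and Cx3cl1 in HSCs, Ackr1 in ECs, and Ccl3, Ccl4, Ccl6, Ccl24, Cxcl2, Cxcl13 and Ccr3 in KCs. None of the 26 was called for another cell type under an alternative. Taken pair by pair, members differed most often between KCs and another cell type. Between HSCs and KCs 33 of the 47 differed (70.2%, against 42.9% of all genes), 26 of them higher in KCs. Between KCs and hepatocytes 33 differed (70.2% against 55.6%), 29 of them higher in KCs, and between ECs and KCs 27 (57.4% against 32.0%), 21 of them higher in KCs. Between ECs and hepatocytes 25 differed (53.2% against 58.7%), between HSCs and hepatocytes 20 (42.6% against 58.4%) and between ECs and HSCs 18 (38.3% against 26.0%), the last split into 10 higher in ECs and 8 higher in HSCs.

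**Figure D1:**
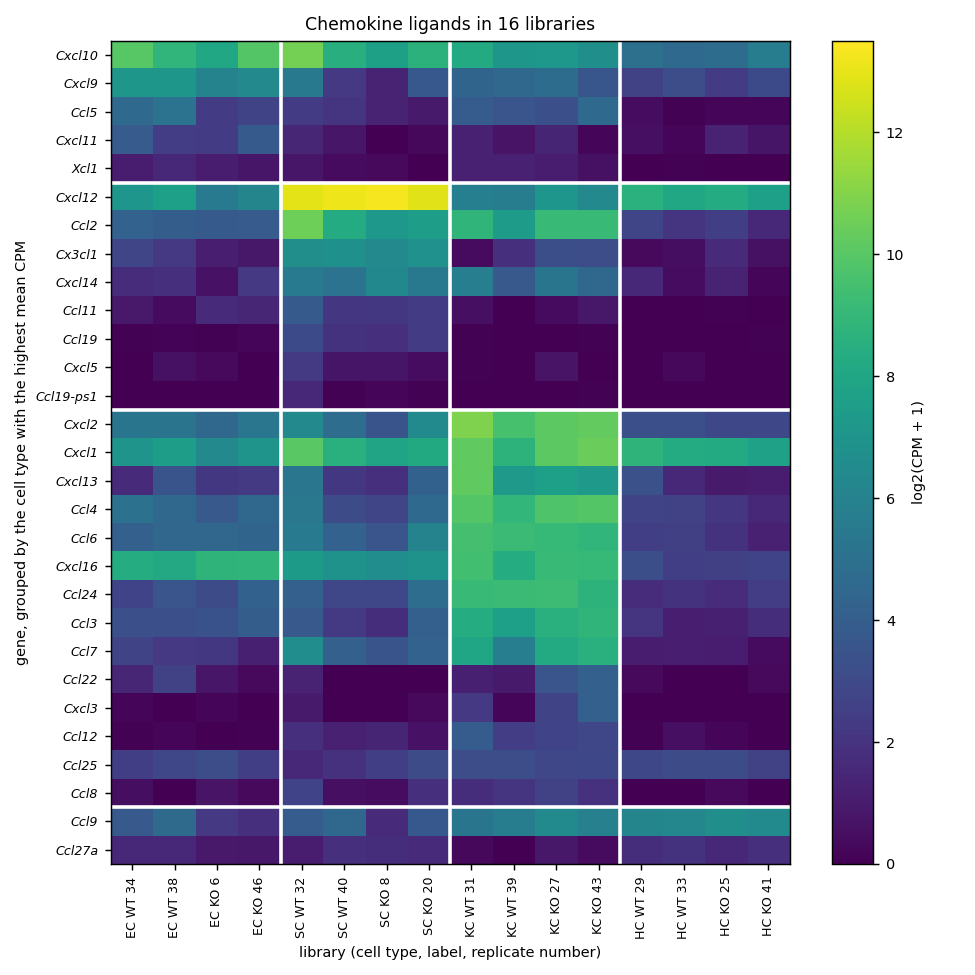
Heat map of the 29 ligands that reached 1 CPM in at least 1 library, with libraries on the x axis (cell type, label, replicate number) and colour for log2(CPM + 1). White lines separate cell types and group the genes by the cell type with the highest mean CPM. The 4 HSC libraries stand out for Cxcl12 and the 4 KC libraries for Cxcl2, Cxcl13, Ccl4, Ccl6, Ccl24 and Ccl3.

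HSCs were the main source of Cxcl12, which retains haematopoietic cells and lymphocytes in their niches. Cxcl12 stood at 7932 and 9034 CPM in the HSC WT libraries and at 10026 and 7670 CPM in those labelled KO. Hepatocytes held 196 to 389 CPM, ECs 48.9 to 194 and KCs 50.8 to 137, so no library of another cell type came near. The log2 difference between HSCs and hepatocytes, the next cell type, was 3.77 ± 0.27 (SE, adjusted p = 2.71e-07), and ECs and KCs did not differ detectably (0.06 ± 0.25, adjusted p = 0.912). Cx3cl1, the transmembrane ligand of the macrophage receptor Cx3cr1, was at 101, 107, 82.3 and 115 CPM in the 4 HSC libraries and at 8.64 CPM or less in the other 12. Its log2 difference between HSCs and KCs was 4.83 ± 0.49 (adjusted p = 1.38e-05). Ccl19, a ligand of Ccr7, was highest in HSCs at 2.49 to 7.04 CPM and was at 0.139 CPM or less elsewhere, under the detection level.

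Per kilobase of exon, the scale used here to compare different genes, Cxcl12 also led the WT HSC ligands with a mean of 1038 ± 95 CPM per kb (SD, n = 2). Ccl2, the monocyte attractant, followed at 784, Cxcl10 at 445 and Cxcl1 at 383 CPM per kb, with SDs of 724, 399 and 253. Those SDs come from a single library. In HSC WT 32, Ccl2 stood at 1470 CPM, Cxcl10 at 1634, Cxcl1 at 1053 and Ccl7, which also attracts monocytes, at 97.7 CPM, while the other 3 HSC libraries had 147 to 314, 202 to 415, 238 to 382 and 10.5 to 18.1 CPM. The summed CPM of 12 feedback genes of NF-kB signalling was 7291 in HSC WT 32 and 2005 to 4277 in the other 3. Whether the chemokines and these genes share a source in that library was not tested. Some ligands that KCs held at high levels, though not Ccl2 and Cxcl1, followed another split. They were higher in HSC WT 32 and HSC KO 20 than in HSC WT 40 and HSC KO 8. Ccl6 was at 45.4 and 63.9 against 17.8 and 10.9 CPM, Cxcl2 at 79.9 and 85.2 against 27.1 and 10.4 CPM, and Ccl24 at 16.8 and 27.0 against 6.21 and 6.36 CPM. The 10 KC markers summed to 2384 and 2548 against 514 and 544 CPM in the same libraries, and their part in these levels was not tested.

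KCs were called highest for more ligands (10) than any other cell type. By breadth they did not stand apart: 24 ligands had a mean of at least 1 CPM in HSCs, 23 in KCs, 23 in ECs and 15 in hepatocytes. Ccl3 and Ccl4, which attract monocytes and T cells, were at 198 to 449 and 485 to 961 CPM in KCs and at 16.5 and 41.6 CPM or less in all other libraries. The log2 differences between KCs and HSCs were 5.28 ± 0.64 for Ccl3 and 5.48 ± 0.63 for Ccl4 (adjusted p = 4.80e-05 and 3.43e-05). Ccl6, a ligand of Ccr1, was at 475 to 733 CPM in KCs against 63.9 or less elsewhere. Ccl24, which attracts eosinophils through Ccr3, was even among the KC libraries at 565, 590, 604 and 423 CPM and at most 27 CPM in others. Cxcl2, a neutrophil attractant, was at 1872 and 751 CPM in KC WT and at 1104 and 1241 CPM in KCs labelled KO, against 85.2 CPM or less elsewhere.

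Other KC ligands varied more between libraries. Cxcl13, which guides B cells, was at 1188 CPM in KC WT 31 and at 150 to 193 CPM in the other 3. The smaller step from KCs to HSCs was still 4.65 ± 0.97 on the log2 scale (adjusted p = 0.00235). KC WT 39 was the lowest KC library for Ccl2 (172 CPM against 453 to 573), Ccl7 (54.3 against 241 to 385), Cxcl1 (420 against 1110 to 1382) and Cxcl16 (324 against 527 to 688). Its NF-kB feedback genes summed to 11093 CPM against 12181 to 18388 in the other 3. Ccl2 did not differ detectably between HSCs and KCs (log2 difference -0.21 ± 0.46, adjusted p = 0.75), and both exceeded ECs and hepatocytes. Cxcl3, another neutrophil attractant, was at 3.69, 0.13, 5.80 and 16.4 CPM in KC WT 31, KC WT 39, KC KO 27 and KC KO 43 and at 0.961 CPM or less elsewhere. Per kilobase, WT KCs were led by Ccl4 (1102 CPM per kb, SD 513), Cxcl2 (634, SD 383), Cxcl13 (583), Ccl24 (446) and Cxcl1 (428).

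ECs were the leading cell type for Cxcl9 and Cxcl11, interferon-inducible ligands of the T-cell receptor Cxcr3. Cxcl9 was at 139 and 143 CPM in EC WT and at 64.4 and 80.8 CPM in ECs labelled KO, against 42.7 CPM or less elsewhere, where HSC WT 32 was the highest library. Its log2 difference from KCs was 2.05 ± 0.69 (adjusted p = 0.0396), a call that was lost when any 1 of the EC, KC or hepatocyte libraries was left out (adjusted p from 0.0519 to 0.131). Cxcl10, the third ligand of this group, did not differ detectably between ECs and HSCs (0.04 ± 0.56, adjusted p = 0.988). Cxcl10 stood at 1031 and 469 CPM in EC WT and at 269 and 938 CPM in ECs labelled KO, and Cxcl11 at 13.9, 4.51, 4.11 and 13.3 CPM in the same order. EC WT 34 and EC KO 46 were thus the high libraries for both genes, 1 of each label. NF-kB feedback genes summed to 4096, 2917, 2401 and 3943 CPM and 10 interferon-stimulated genes to 623, 342, 486 and 828 CPM in these 4 libraries. Their part in the Cxcl10 and Cxcl11 levels was not tested. The EC call of Cxcl11 was lost under 9 of 21 alternatives, among them WT libraries alone and KO-labelled libraries alone. In Cxcl11, 41.7% of exon bases overlap a gene on the opposite strand, and the strand setting of the counting is not given in the sources used here.

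Cxcl16, the transmembrane ligand of Cxcr6, was shared by KCs and ECs. It was at 688, 324, 553 and 527 CPM in KCs, at 331, 286, 439 and 457 CPM in ECs, at 98.4 to 161 CPM in HSCs and at 8.41 CPM or less in hepatocytes. KCs exceeded ECs by 0.83 ± 0.28 (log2, adjusted p = 0.0397) with the scaling used, but by 0.49 with an adjusted p = 0.149 when libraries were scaled by their totals alone. The KC call of Cxcl16 was lost under 10 of 21 alternatives, among them each label alone and leaving out any 1 EC library. In WT ECs the ligands ranked, per kilobase, Cxcl10 (333 CPM per kb, SD 177), Cxcl16 (102, SD 10.7), Cxcl1 (83.5, SD 22.7), Cxcl9 (46.7, SD 0.86) and Ccl4 (41.1, SD 9.89).

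Hepatocytes held few chemokines. Cxcl1 stood at 446 and 318 CPM in hepatocyte WT libraries and at 301 and 208 CPM in those labelled KO, and it led their ligands at 204 CPM per kb (SD 48.0). Cxcl12 followed at 40.6 and Ccl9, a ligand of Ccr1, at 23.9 CPM per kb. Ccl9 was at 70.5, 75.1, 102 and 84.2 CPM in hepatocytes and at 36.4, 52.1, 85.4 and 56.9 CPM in KCs, so the 2 cell types overlapped in CPM. The scaling factors that edgeR's TMM method gave the hepatocyte libraries, 0.497 to 0.588 against 1.01 to 1.47 in the others, raise every hepatocyte level by about 1 log2 unit. With them Ccl9 was higher in hepatocytes than in KCs by 1.62 ± 0.42 (adjusted p = 0.00637), and without them by 0.55 (adjusted p = 0.278). Ccl25, a ligand of Ccr9, was at 5.19 to 7.74 CPM in hepatocytes and 6.33 to 8.03 CPM in KCs. Its log2 difference from KCs, 0.97 ± 0.33 (adjusted p = 0.0268), turned to -0.078 with totals alone (adjusted p = 0.907). The call for hepatocytes was lost under 19 of 21 alternatives. Among them were WT libraries alone, KO-labelled libraries alone and the leaving out of any 1 library.

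**Figure D2:**
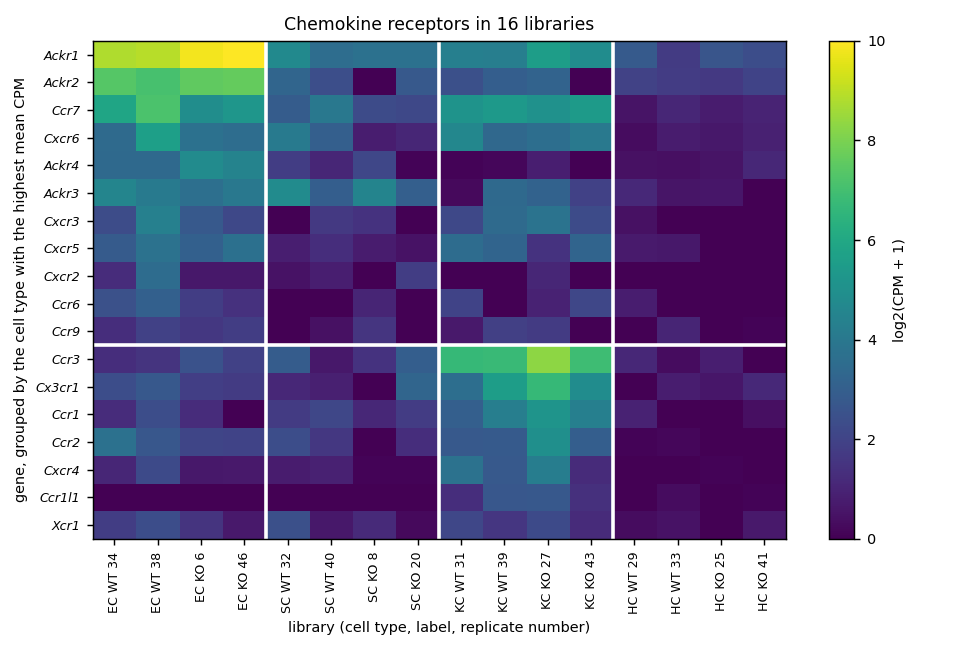
Heat map of 18 receptors that reached 1 CPM in at least 1 library, drawn like that of the ligands, with colour for log2(CPM + 1). Atypical receptors Ackr1 and Ackr2 are bright in the 4 EC libraries only, Ccr3 in the 4 KC libraries, and hepatocytes are dark throughout.

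Receptors divided between ECs and KCs. ECs led for 3 of the 4 atypical receptors. Ackr1, which carries chemokines across venular endothelium, was at 448, 491, 904 and 1020 CPM in EC WT 34, EC WT 38, EC KO 6 and EC KO 46, against 46.4 CPM or less in the other 12 libraries (log2 difference from KCs 4.35 ± 0.35, adjusted p = 3.05e-06). In the annotation, 25.7% of its exon bases are shared with Cadm3 on the same strand. Ackr2, a scavenger of inflammatory CC chemokines known from lymphatic endothelium, was at 134 to 196 CPM in ECs and 8.52 CPM or less elsewhere (4.63 ± 1.05 from hepatocytes, adjusted p = 0.00244). Ackr4, a scavenger of homing chemokines, was at 9.56, 9.79, 27.6 and 21.4 CPM in ECs and at 3.32 CPM or less elsewhere. The EC call of Ackr4 was lost under 9 of 21 alternatives, among them each label alone and leaving out any 1 EC library. That of Ackr2 was lost with KO-labelled libraries alone. Ackr3, the atypical receptor of Cxcl12, did not differ detectably between ECs and HSCs (-0.21 ± 0.86, adjusted p = 0.908).

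Receptors highest in KCs included Ccr1, Ccr1l1, Ccr3, Cx3cr1 and Cxcr4. Of these calls only that of Ccr3 held under every alternative. The calls of Ccr1, Cx3cr1 and Cxcr4 were lost both with WT libraries alone and with KO-labelled libraries alone. Ccr1l1 was lost with WT libraries alone and with DESeq2. It had 22, 84, 88 and 24 counts in the KC libraries and no count in ECs or HSCs. Ccr3, best known from eosinophils, was at 102, 110, 317 and 117 CPM, with KC KO 27 the highest. The same library was the highest of the KCs for Cx3cr1 (103 CPM against 11.3 to 46.1), Ccr2 (30.8 against 5.97 to 6.84), Ccr1 (35.1 against 7.24 to 19.0) and Cxcr4 (17.7 against 1.35 to 12.5). Neutrophil markers summed to 176 CPM in KC KO 27 and to 20.8 to 24.2 CPM in the other KC libraries, and monocyte markers to 421 CPM against 212 to 588. Their part in these receptor levels was not tested.

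Ccr7, Cxcr5 and Cxcr6, known from lymphocytes and dendritic cells, did not differ detectably between ECs and KCs. Ccr7 was at 58.6, 142, 29.2 and 37.5 CPM in ECs and at 32.5 to 43.2 CPM in KCs (log2 difference 0.29 ± 0.34, adjusted p = 0.574). Cxcr6 was at 9.98, 48.4, 12.2 and 11.1 CPM in ECs and 9.46 to 23.7 CPM in KCs (-0.05 ± 0.52, adjusted p = 0.982). EC WT 38 was the highest EC library for Ccr7, Cxcr6, Cxcr3 (19.7 CPM against 3.48 to 5.92) and Cxcr2 (10.6 against 0.556 to 1.40). In EC WT 38, 12 markers of T, NK and innate lymphoid cells summed to 284 CPM, against 139, 79.6 and 72.0 CPM in EC WT 34, EC KO 6 and EC KO 46, and 6 B-cell markers to 690 CPM against 139 to 223. At least 11 of the 12 and all 6 exceeded 3 counts in every EC library, and their part in the receptor levels was not tested. HSCs and hepatocytes held little receptor RNA. In WT HSCs the leading receptors were Ackr1 (13.2 CPM per kb, SD 7.51), Cxcr6 (6.05) and Ccr7 (5.45), and in WT hepatocytes Ackr1 (3.03, SD 1.94) and Ackr2 (0.85) led.

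Set side by side as sources and receivers, some known pairs of ligand and receptor peaked in different cell types and others in the same. Cxcl12 was made in HSCs, while its signalling receptor Cxcr4 was highest in KCs, at 12.5, 5.87, 17.7 and 1.35 CPM (log2 difference from ECs 3.29 ± 0.83, adjusted p = 0.0111). Cx3cl1 likewise came from HSCs and Cx3cr1 was found in KCs at 11.3, 46.1, 103 and 27.8 CPM against 8.51 CPM or less elsewhere. Ccl3 and Ccl24 lay in the same cell type as their receptors Ccr1 and Ccr3, namely KCs. The KC calls of Cxcr4, Cx3cr1 and Ccr1 did not hold with the libraries of 1 label only, as given above. For Ccl2, which came from HSCs and KCs, the receptor Ccr2 was low everywhere, at 30.8 CPM in KC KO 27 and 12.1 CPM or less in the other libraries. Cxcr2, the receptor of Cxcl1 and Cxcl2, exceeded 3 CPM only in EC WT 38. Ccr4, the receptor of Ccl22, never exceeded 0.765 CPM, and Ccl11, which shares Ccr3 with Ccl24, was highest in HSC WT 32 at 13 CPM. Ligands and receptors are compared here only as RNA of sorted cells, and leukocytes passing through the liver were not sorted for themselves.

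The comparison of KO with WT label asks how chemokine genes in each cell type differ when Zeb2 is targeted in endothelium. In ECs 1 of the 41 members tested passed an adjusted p of 0.05, and 2.08% of all 14631 genes tested did. No member passed in HSCs (41 tested), KCs (41) or hepatocytes (25), where 0% of all genes tested passed. An unadjusted p under 0.05 was reached by 29.3% of the members in ECs, against 15.0% of all genes. There 2 members were higher under the KO label, as were 4.86% of all genes, and 10 were lower, as were 10.1%. In HSCs 14.6% of the members reached it against 8.75% of all genes, with none higher (1.75% of all genes) and 6 lower (7.00%). In KCs 9.76% did against 5.09%, with 4 higher (3.35% of all genes) and none lower (1.74%). In hepatocytes 4% did against 7.11%, with none higher (2.42% of all genes) and 1 lower (4.69%). Leaving out EC KO 6 took the 10 in ECs to 5, and in KCs the 4 became 11 without KC WT 31, 8 without KC KO 43 and 1 without KC KO 27, while 6 were lower without KC WT 39. DESeq2 called 8 members in ECs, 2 in HSCs, 1 in KCs and none in hepatocytes at the same adjusted threshold. The share of all genes that DESeq2 called was not computed, so these counts show nothing particular to the members. Over the members tested, the median log2 fold change (KO over WT) was -0.64 in ECs, -0.92 in HSCs, 0.07 in KCs and -0.23 in hepatocytes, beside -0.01, 0.02, -0.02 and -0.02 over all genes tested. The groups did not overlap for 25 of 41 members in ECs (61.0%, against 48.5% of all genes), 13 of 41 in HSCs (31.7% against 40.5%), 15 of 41 in KCs (36.6% against 37.3%) and 7 of 25 in hepatocytes (28.0% against 40.8%).

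**Figure D3:**
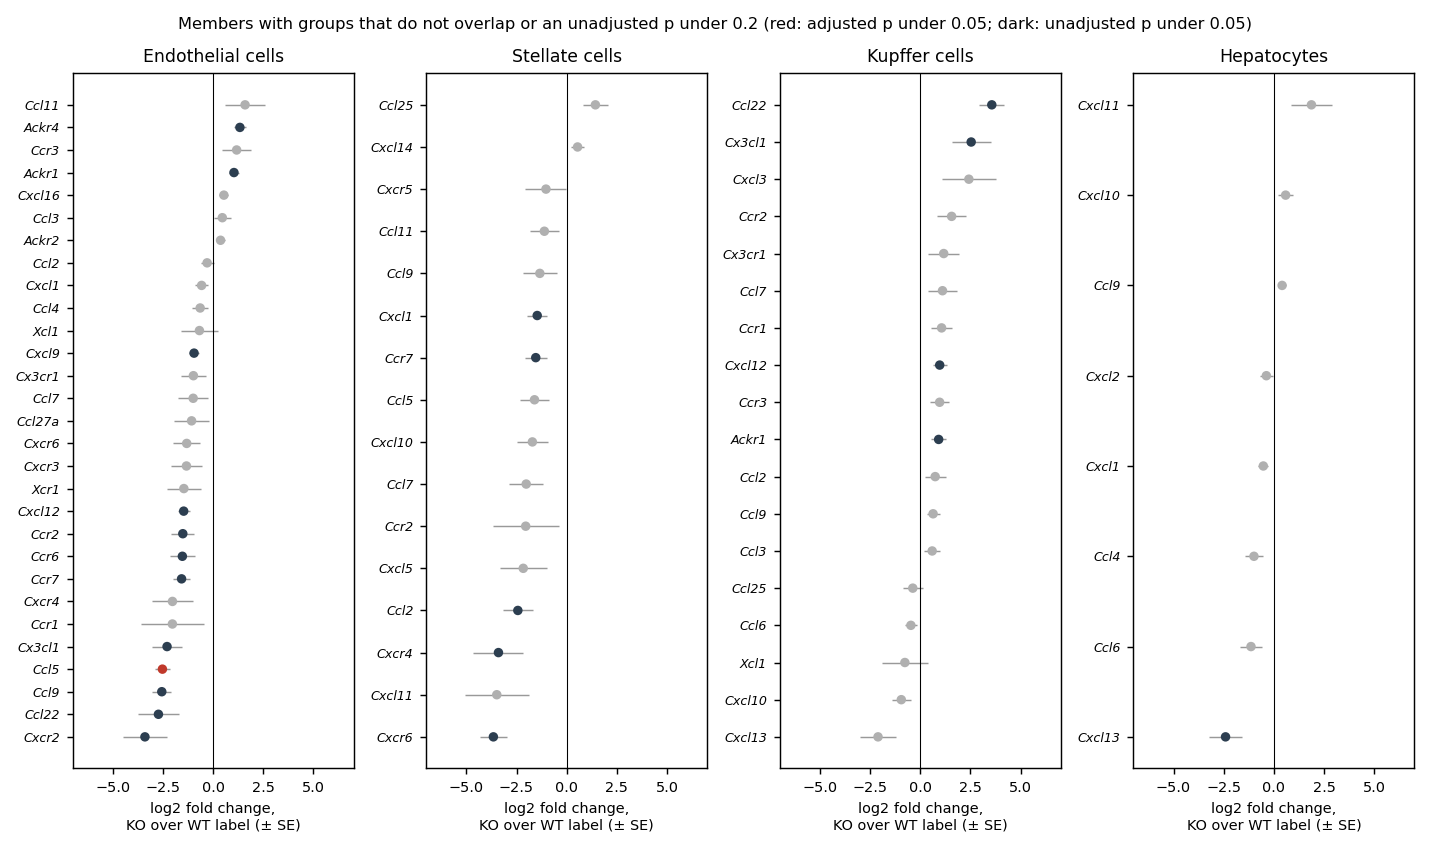
Log2 fold change of KO over WT label with its SE in each cell type, for reported members whose groups do not overlap or whose unadjusted p is under 0.2. Ccl5 in ECs, in red, is the single member past the adjusted threshold, and dark points have an unadjusted p under 0.05.

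In ECs Ccl5, a T-cell and NK-cell attractant also made by those cells, fell. It was at 23.7 and 34.6 CPM in EC WT 34 and 38 and at 4.11 and 5.91 CPM in EC KO 6 and 46, so each KO-labelled library was below both WT libraries (log2 fold change -2.53 ± 0.39, SE, adjusted p = 0.0367 by edgeR's quasi-likelihood test). The call was lost without EC KO 6 (adjusted p = 0.095) or EC KO 46 (0.0758), in the fit over all 16 libraries (0.0639) and without 857 hepatocyte-enriched genes (0.152), with a log2 fold change of -2.87 to -2.23 over all alternatives. Markers of T, NK and innate lymphoid cells summed to 139 and 284 CPM in EC WT and to 79.6 and 72.0 CPM in ECs labelled KO. All 12 had a negative fold change, 6 at an unadjusted p under 0.05 and 1 past the adjusted threshold, and their part in the Ccl5 difference was not tested.

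Ccl9 and Cxcl12 came next. Ccl9 was at 12.8 and 24.5 CPM in EC WT and at 3.69 and 2.64 CPM in ECs labelled KO (-2.56 ± 0.47, adjusted p = 0.0559). Cxcl12 was at 135 and 194 against 48.9 and 68.8 CPM (-1.47 ± 0.30, adjusted p = 0.0727). Neither pair of groups overlapped, and neither gene passed the threshold in the reported fit. Both were past it when EC WT 34 was left out, and both are called at an adjusted p under 0.1. Other alternatives also called more members in ECs than the reported 1, as given in the closing section. Both genes were far higher in another cell type, and markers of those cell types moved too. The 10 hepatocyte markers summed to 12036 and 24523 CPM in EC WT and to 2799 and 1990 CPM in ECs labelled KO, and all 10 fell past the adjusted threshold (median log2 fold change -2.94). HSC markers summed to 714 and 972 against 318 and 492 CPM, with all 9 tested at a negative fold change and 7 at an unadjusted p under 0.05. KCs also held more Ccl9 than ECs, and KC markers went the other way. The KC markers summed to 820 and 513 against 1124 and 1148 CPM, with all 10 at a positive fold change and 6 at an unadjusted p under 0.05. The part of these markers in the differences was not tested.

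Other members lower under the KO label in ECs at an unadjusted p under 0.05 were Cxcl9 (-0.95 ± 0.23, adjusted p = 0.124), Ccr7 (-1.57 ± 0.43, adjusted p = 0.159), Cx3cl1 (-2.29 ± 0.73, adjusted p = 0.222) and Cxcr2 (-3.40 ± 1.10, adjusted p = 0.229), and likewise Ccl22, Ccr2 and Ccr6 with adjusted p-values of 0.287 to 0.327. Ccr7 and Cxcr2 were the genes for which EC WT 38 stood apart. Of the 4 atypical receptors, 3 had the opposite sign. Ackr1 was at 448 and 491 CPM in EC WT and at 904 and 1020 CPM in ECs labelled KO, a log2 fold change of 1.04 ± 0.24 (adjusted p = 0.111). Ackr4 was at 9.56 and 9.79 against 27.6 and 21.4 CPM (1.34 ± 0.31, adjusted p = 0.107) and Ackr2 at 162 and 134 against 187 and 196 CPM (0.37 ± 0.22, adjusted p = 0.50). In all 3 the groups did not overlap, and none of the 3 passed the adjusted threshold. The fourth, Ackr3, was at 22.7 and 15.8 against 11.7 and 15.2 CPM (-0.52 ± 0.36, adjusted p = 0.574). DESeq2 gave Ackr1 an adjusted p of 0.000437. The summed CPM of the 10 endothelial markers was 23346 and 19496 in EC WT and 26788 and 25420 in ECs labelled KO, and their log2 fold changes had a median of -0.06.

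**Figure D4:**
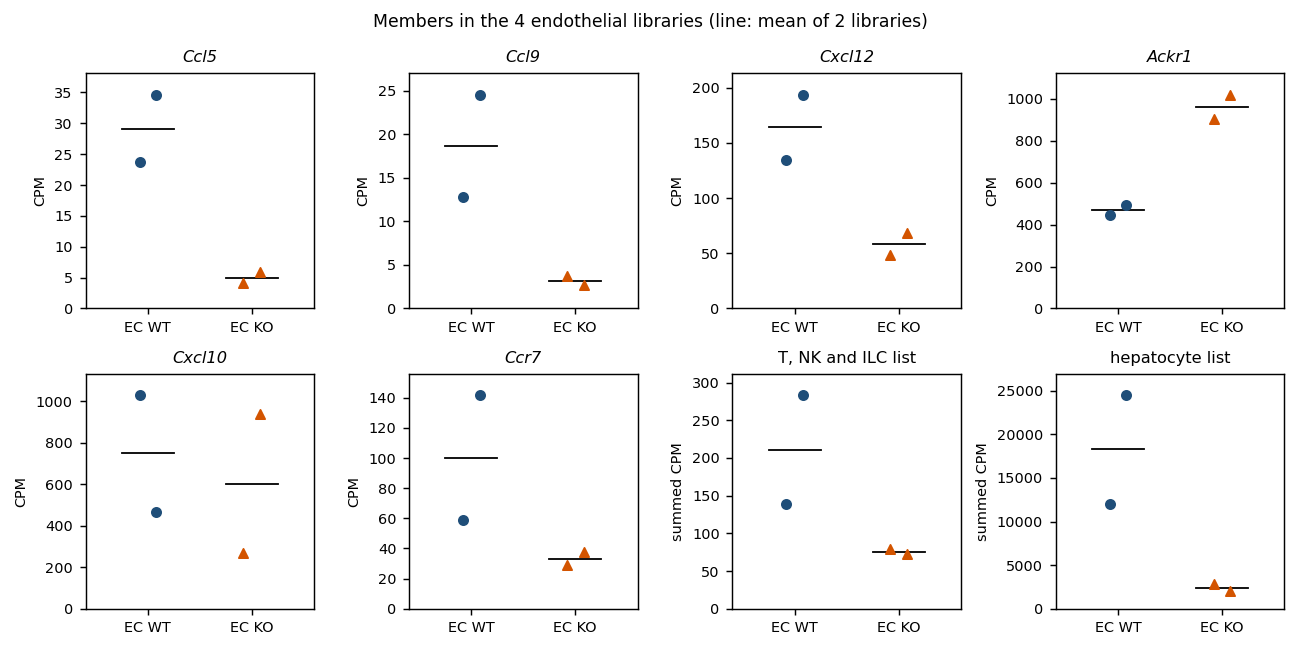
CPM of 6 members, and summed CPM of 2 marker lists, in each of the 4 EC libraries, with circles for WT label, triangles for KO label and a line for the mean of 2 libraries. Ccl5, Ccl9, Cxcl12 and both marker lists are lower in both KO-labelled libraries, Ackr1 is higher, and Cxcl10 splits each label.

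In HSCs Cxcr6 and Ccl2 were among the 3 members with the lowest p-values. Cxcr6, a receptor of T and NK cells, was at 16.1 and 7.23 CPM in HSC WT 32 and 40 and at 0.76 and 1.11 CPM in HSC KO 8 and 20 (-3.65 ± 0.67, adjusted p = 0.309). Ccl2 was at 1470 and 314 against 147 and 189 CPM (-2.43 ± 0.73, adjusted p = 0.441). Groups of both genes were apart, but with 2 libraries a group the differences did not pass the test over all genes. DESeq2 called Cxcr6 (adjusted p = 0.000174) and Ccl2 (adjusted p = 0.00368).

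The count of 6 members lower in HSCs at an unadjusted p under 0.05 became 3 without HSC WT 32, the library with the high inflammatory ligands, 1 without HSC KO 8 and 13 without HSC KO 20. Without HSC WT 32 the log2 fold change of Ccl2 was -0.91 and that of Cxcl1 -0.54, against -2.43 and -1.47 with it. Without it Cxcr6 stood at -2.94. In HSC libraries T, NK and innate lymphoid markers summed to 54.8 and 29.2 CPM under the WT label and to 12.3 and 4.22 CPM under the KO label, and hepatocyte markers to 3324 and 7871 against 626 and 1544 CPM. Of the 12 lymphoid markers, 12 and 11 exceeded 3 counts under the WT label and 6 and 3 under the KO label, and their part in the Cxcr6 difference was not tested. Cxcl12 (7932 and 9034 against 10026 and 7670 CPM) and Cx3cl1 (101 and 107 against 82.3 and 115 CPM), the ligands most particular to HSCs by level, overlapped between labels.

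In KCs Ccl22, which attracts regulatory T cells through Ccr4, had the lowest p-value of all members. It was at 1.27 and 0.979 CPM in KC WT 31 and 39 and at 10.9 and 16.9 CPM in KC KO 27 and 43 (log2 fold change 3.56 ± 0.61, unadjusted p = 0.000978, adjusted p = 0.933). Both KO-labelled libraries were above both WT libraries, yet no gene of the 13867 tested had an adjusted p under 0.933 in KCs. DESeq2 called Ccl22 (adjusted p = 0.00133). Cxcl12 was at 55.0 and 50.8 against 137 and 80.2 CPM (0.97 ± 0.35), Cx3cl1 at 0.335 and 2.54 against 8.64 and 7.99 CPM (2.53 ± 0.97) and Ackr1 at 19.1 and 18.5 against 46.4 and 27.9 CPM (0.91 ± 0.38), all with an adjusted p = 0.933. HSC markers in these KC libraries summed to 338 and 163 CPM under the WT label and to 560 and 173 CPM under the KO label. Endothelial markers summed to 864 and 1171 against 1525 and 1159 CPM, with 9 of 10 at a positive fold change. Among inflammatory ligands, Cxcl2 and Ccl4 overlapped between labels. Both KO-labelled libraries were above both WT libraries for Ccl2 (0.74 ± 0.52), Ccl3 (0.59 ± 0.38), Ccl7 (1.11 ± 0.70), Ccl9 (0.64 ± 0.32) and Cxcl3 (2.42 ± 1.34). For Ccl6 (-0.47 ± 0.31) both were below, and each of these genes had an adjusted p = 0.933. Groups were apart in this way for 37.3% of all genes tested in KCs. The 12 immediate early genes summed to 27187 and 36332 CPM under the WT label and to 13655 and 7603 CPM under the KO label. The part of these lists in the members' values was not tested.

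**Figure D5:**
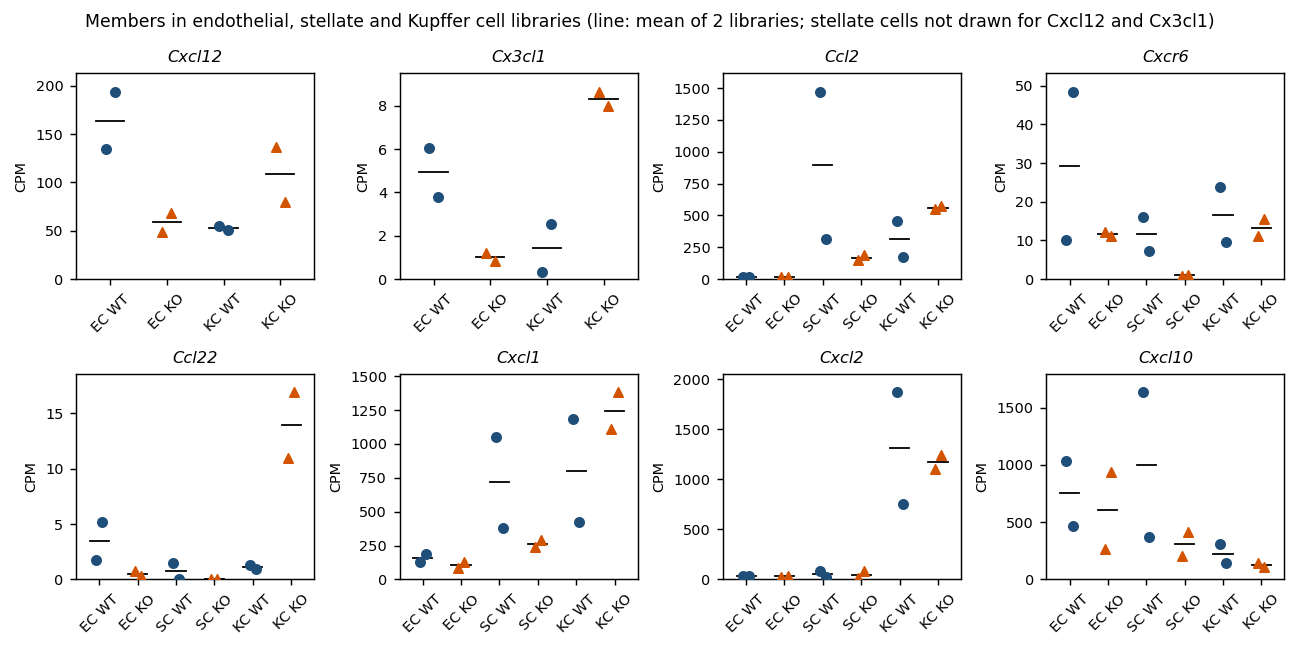
CPM of 8 members in each EC, HSC (labelled SC) and KC library, with circles for WT label, triangles for KO label and a line for the mean of 2 libraries, on linear axes from 0. HSCs are left out for Cxcl12 and Cx3cl1, which lie lower under the KO label in ECs and higher in KCs, and HSC WT 32 is the highest HSC library for Ccl2, Cxcl1 and Cxcl10.

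In hepatocytes Cxcl13, Cxcl1 and Ccl4 had the lowest p-values. Cxcl13 was at 9.37 and 1.91 CPM in hepatocyte WT 29 and 33 and at 0.967 and 1.01 CPM in hepatocyte KO 25 and 41 (-2.41 ± 0.83, adjusted p = 0.70). Cxcl1 was at 446 and 318 against 301 and 208 CPM (-0.53 ± 0.25) and Ccl4 at 5.93 and 5.18 against 3.42 and 1.95 CPM (-0.99 ± 0.47), both with an adjusted p = 0.708. KCs hold Cxcl13 and Ccl4 at far higher levels, and the 10 KC markers summed to 446 and 232 CPM in hepatocytes labelled WT and to 205 and 157 CPM in those labelled KO, with 9 of 10 at a negative fold change. Their part was not tested.

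The difference between KO and WT label was itself compared between cell types. Between ECs and KCs it differed past the threshold for 2 of 47 members, and for 2.07% of all 17214 genes tested. For Cx3cl1 the EC log2 fold change was lower than that in KCs by 4.85 (-4.85 ± 0.95, SE, adjusted p = 0.0284), and for Cxcl12 by 2.45 (-2.45 ± 0.50, adjusted p = 0.0326). Both genes were lower under the KO label in both EC libraries and higher in both KC libraries. Both calls were lost without any one of EC WT 38, EC KO 6, EC KO 46, KC WT 31, hepatocyte WT 29 or hepatocyte WT 33, and also without hepatocyte-enriched genes. Over all alternatives the difference for Cx3cl1 ran from -6.67 to -3.98 (adjusted p from 6.65e-05 to 0.166), and that for Cxcl12 from -2.78 to -1.96 (adjusted p from 1.46e-05 to 0.139). No member passed in the other 5 pairs of cell types. All genes passing were 0.593% between HSCs and KCs, 0.0755% between HSCs and hepatocytes, 0.0697% between ECs and hepatocytes, 0.0349% between ECs and HSCs and 0.0116% between KCs and hepatocytes. At an unadjusted p under 0.05 there were 8 members between ECs and KCs (14.0% of all genes), 10 between HSCs and KCs (11.7%), 6 between HSCs and hepatocytes (7.16%), 5 between ECs and hepatocytes (9.12%), 5 between ECs and HSCs (4.85%) and 2 between KCs and hepatocytes (8.18%). DESeq2 called 4 members between ECs and KCs, 2 between ECs and hepatocytes, 2 between HSCs and KCs and 1 between HSCs and hepatocytes. Here too the share of all genes that DESeq2 called was not computed.

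Other genes of the pathway were followed through 48 listed genes, among them proteoglycans that hold chemokines, proteases that trim or shed them, and the G-protein signalling chain behind the receptors. In ECs 45 were tested, and 2 passed the adjusted threshold, beside 2.08% of all genes. Both fell: Sdc4, a heparan sulphate proteoglycan (-1.50 ± 0.23, adjusted p = 0.0366), and Rarres2, the precursor of the attractant chemerin (-2.16 ± 0.36, adjusted p = 0.0429). Both were higher in other cell types, Sdc4 in WT hepatocytes at a mean of 778 normalised CPM against 203 in WT ECs, and Rarres2 in WT HSCs at 400.2 against 43.4. The hepatocyte and HSC markers that were lower in the same EC libraries are given above with Ccl9 and Cxcl12, and their part in these 2 differences was not tested. At an unadjusted p under 0.05, 14 of the 45 were lower, beside 10.1% of all genes, and 1, the G-protein brake Rgs1, was higher, beside 4.86%. The leukocyte signalling genes Dock2, Pik3cg, Plcb2, Rac2, Vav1 and Was were among the 14. All 12 markers of T, NK and innate lymphoid cells and all 6 B-cell markers had a negative fold change in the same comparison (medians of -1.67 and -1.51), and their part was not tested. In HSCs none of 46 passed, and 6 were lower at an unadjusted p under 0.05, beside 7.00% of all genes. They included Dpp4 (-1.60 ± 0.46), a protease that trims chemokines, and Adam17 (-0.90 ± 0.33), which sheds Cx3cl1. In KCs none of 46 passed, with 7 higher (3.35% of all genes) and 2 lower (1.74%) at the unadjusted threshold. Adam17 (0.82 ± 0.30) and Sdc4 (1.38 ± 0.37) were among the higher. In hepatocytes none of 36 passed and 3 were lower at the unadjusted threshold, beside 4.69% of all genes. The median log2 fold changes of the list were -0.42 in ECs, -0.06 in HSCs, 0.11 in KCs and -0.33 in hepatocytes.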

How the data were processed

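RNA of 4 sorted liver cell types was sequenced in 16 libraries (2 for each cell type under each genotype). The labels name a TruSeq stranded mRNA kit, whereas the design text names Smart-seq2. Per the labels, the authors deposited raw read counts per Ensembl gene, made with Trimmomatic 0.32, HISAT2 2.1.0 and HTSeq 0.9.1 on GRCm38. The annotation release and the strand setting of the counting are not given in the sources used here. Reads without a unique place or gene have lines of their own in each file, which were left out of totals, and 42.5% to 57.5% of all reads listed were counted on genes. Totals of 12872706 to 15690506 counts limit precision for genes of a few CPM.

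Here CPM were computed from the counts over gene rows and, between genes, per kb of exon (GENCODE M21). KO and WT labels were compared within each cell type by edgeR 4.0.16 (R 4.3.3, filterByExpr, TMM, quasi-likelihood test, two-sided, Benjamini-Hochberg adjustment over all genes tested). Pairs of cell types, the cell type with the highest level and the difference of KO effects between cell types came from one fit over 16 libraries, in which members were 47 of 17214 genes tested. Each fold change is on the log2 scale with its SE. Alternatives were DESeq2 1.42.0, other scalings and filters, thinning to the smallest library, leaving out the 857 genes with at least 10 CPM in WT hepatocytes and at least 8 times their WT KC level (no member among them), and leaving out each library. Scaling by library totals alone was chosen after seeing the data. The fits were run on simulated data with large changes in genes of higher counts. The simulated spread was below that of these libraries, so power in these data was not tested.

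Named genes were, in each cell type, the 5 ligands and 3 receptors with the highest WT level per kb and a mean of at least 1 CPM, the 3 members with the lowest p, every member past a threshold, Ccl2, Ccl22 and Cxcr6, and their partners in a fixed list of pairs. Others were named after their values were seen. Members and lists were chosen with earlier results of these data known. Genes counted in the totals but not named are not reported here.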

Additional observations from a re-analysis of the deposited data

Results flagged for a closer look

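The effect of the KO label differed between ECs and KCs for 2 members, by the test of that difference in the fit over all 16 libraries. For Cx3cl1 the log2 fold change in ECs minus that in KCs was -4.85 ± 0.95 (SE, adjusted p = 0.0284). Its levels were 6.07 and 3.81 CPM in EC WT against 1.18 and 0.834 CPM in ECs labelled KO, and 0.335 and 2.54 CPM in KC WT against 8.64 and 7.99 CPM in KCs labelled KO. For Cxcl12 the difference was -2.45 ± 0.50 (adjusted p = 0.0326), with 135 and 194 against 48.9 and 68.8 CPM in ECs and 55.0 and 50.8 against 137 and 80.2 CPM in KCs. Both genes were highest in HSCs, and the summed HSC markers were 714 and 972 against 318 and 492 CPM in ECs and 338 and 163 against 560 and 173 CPM in KCs, in the same order of libraries. Their part in the difference was not tested. With 2 libraries a group, no group was large enough to look for single libraries far from the rest.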

How the results depend on the processing

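Each result was computed again with DESeq2, other scalings, other filters on low counts, an adjusted p under 0.1, all 16 libraries in one fit, libraries thinned to the smallest, hepatocyte-enriched genes left out, libraries of 1 label only, and each library left out, in which case the lone library of a group is assumed to vary like the other groups. The scaling by library totals alone was chosen after seeing the data. Of 337 such counts of members, 292 stayed within 1.5 times the reported count and 45 did not. A reported count of 0 that stayed at 0 is among the 292, where no ratio can be formed. The 1 member past the threshold in ECs (KO against WT label) became 3 at an adjusted p under 0.1 and with at least 10 counts in every library, 8 with DESeq2, 9 without a filter on low counts, and 0 in the fit over all 16 libraries and without hepatocyte-enriched genes. Leaving out 1 library gave 0 to 6, with 6 reached without EC WT 34 and 0 without EC KO 6 or EC KO 46. The 0 members in HSCs became 2 with DESeq2 and 5 without a filter, the 0 in KCs became 1 and 2, and the 0 in hepatocytes became 1 without a filter. For the difference of KO effects, the 2 members between ECs and KCs became 4 with DESeq2, 0 without hepatocyte-enriched genes and 0 to 3 on leaving out 1 library. The 0 between ECs and hepatocytes, HSCs and KCs, and HSCs and hepatocytes became 2, 2 and 1 with DESeq2 and 0 to 1 on leaving out 1 library. Between cell types without a filter, the 18 members of ECs against HSCs became 29 and the 20 of HSCs against hepatocytes became 34, which library totals alone also gave. WT libraries alone gave 11 for ECs against HSCs, 20 in place of 33 for HSCs against KCs, and 14 in place of 26 members highest in 1 cell type. KO-labelled libraries alone gave 10 for ECs against HSCs, 15 in place of 25 for ECs against hepatocytes, 13 for HSCs against hepatocytes, and 17 members highest in 1 cell type; these fits hold fewer libraries. For single genes, 126 values under an alternative were no longer past the threshold, 26 were newly past it and 1 changed sign: Ccl25 in hepatocytes against KCs, at -0.078 on the log2 scale with library totals alone. Where the construction of an alternative does not show it, the cause was not tested. Shares of all genes called were not computed under the alternatives, so a changed count shows nothing particular to the members. No paired analysis was possible because the groups share no replicate number. Totals of 12872706 to 15690506 counts limit the precision for members of a few CPM.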
